A study of Mus musculus with 27 samples.

Results

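Thyrotropin-releasing hormone (TRH), the tachykinin peptides and their receptors were followed through the mRNA libraries of mouse hippocampus as 7 genes: Trh, the precursor of TRH; Trhr and Trhr2, its receptors; Tac1 and Tac2, the tachykinin precursors; and Tacr1 and Tacr3, neurokinin receptors. The genes were taken by symbol from a gene table of 51826 features, and all 7 passed the low-count filter that left 19969 tested genes. Trhr and Tacr3 were chosen because xanthohumol lowered them in sham mice and raised them in ovariectomized mice in these libraries, so their xanthohumol values are given as a description, without a test. The other 5 genes were chosen as the ligands and receptors of the same systems, and they were tested.

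The hippocampi came from mice of the ICR strain, an outbred stock, in a design of surgery by treatment. The groups were ovariectomized mice given xanthohumol (OVX Xmo, n = 4 libraries), ovariectomized mice given saline (OVX saline, n = 4), sham-operated mice given xanthohumol (sham Xmo, n = 4) and sham-operated mice given saline (sham saline, n = 3). Xanthohumol is a prenylated flavonoid of hops, and ovariectomy removes the main source of ovarian estrogen. Age, dose and length of treatment were not given in the sources used here, and nothing stated that the libraries of a group came from separate animals, so each p-value measures only the spread between these libraries, which may be technical.

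TRH is a tripeptide cut from a larger precursor, best known as the hypothalamic hormone that drives release of thyrotropin from the pituitary, and it also acts in the brain as a neuromodulator. Tac1 encodes substance P and neurokinin A, while mouse Tac2 encodes neurokinin B. Substance P prefers the receptor encoded by Tacr1 and neurokinin B prefers that encoded by Tacr3. Receptors of both families couple mainly to Gq proteins, which activate phospholipase C and so raise inositol trisphosphate, calcium and protein kinase C activity.

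The promoters of genes from both systems are shown for the sequence context of the levels that follow. RefSeq promoter windows on build GRCm38.p6 were matched by symbol for 5 of the 7 genes, namely Tacr3, Trh, Tac1, Tac2 and Tacr1. The 3 printed are those whose RefSeq start was the start of the gene in the deposited table, each as the 250 bases before the start, 5′ to 3′ on the gene's strand. Capitals mark 3 motifs searched on both strands: the estrogen response half-site (GGTCA or TGACC), the cAMP response half-site (TGACG or CGTCA) and the TATA box (TATAAA or TTTATA). No motif matches overlapped in these windows.
Tacr3 (chr3:134828757-134829006, plus strand): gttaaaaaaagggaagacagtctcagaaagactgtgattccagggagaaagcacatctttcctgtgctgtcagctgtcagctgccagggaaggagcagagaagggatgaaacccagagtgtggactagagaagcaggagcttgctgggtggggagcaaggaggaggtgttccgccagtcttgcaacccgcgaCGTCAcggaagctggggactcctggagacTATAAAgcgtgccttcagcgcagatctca
Trh (chr6:92244651-92244900, minus strand): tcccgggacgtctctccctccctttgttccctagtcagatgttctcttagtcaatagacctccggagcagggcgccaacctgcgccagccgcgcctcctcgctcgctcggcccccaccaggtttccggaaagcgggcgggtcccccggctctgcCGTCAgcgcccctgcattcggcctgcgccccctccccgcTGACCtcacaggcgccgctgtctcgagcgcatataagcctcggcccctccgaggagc
Tac2 (chr10:127724228-127724477, plus strand): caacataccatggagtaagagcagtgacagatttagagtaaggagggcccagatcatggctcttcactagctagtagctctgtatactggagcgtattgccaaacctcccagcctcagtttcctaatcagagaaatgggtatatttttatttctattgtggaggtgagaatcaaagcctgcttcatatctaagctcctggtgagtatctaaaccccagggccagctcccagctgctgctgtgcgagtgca
The Tacr3 window held CGTCA beginning 58 bases before the start and TATAAA beginning 29 bases before it. The Trh window held TGACC 57 bases and CGTCA 96 bases before the start, and the Tac2 window held none of the 3 motifs. Of 32851 RefSeq promoter windows of the same length, 35.2% held the estrogen response half-site, 17.8% the cAMP response half-site and 12.4% the TATA box, so each match is a description of letters that are common in promoters.

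Library totals ranged between 20.8 × 1e+06 and 39.1 × 1e+06 counts. The sham saline libraries stood apart: the 13 protein genes of the mitochondrial genome took 12.4% to 16.5% of the counts in OVX Xmo, 11.9% to 16.5% in OVX saline and 14.3% to 19.2% in sham Xmo, against 19.0% to 34.1% in sham saline. The TMM (trimmed mean of M-values) scaling factors were 0.976 to 1.09 in the other libraries, against 0.726 to 0.969 in sham saline. The part of this split in the differences from sham saline was not tested. Levels below are TMM-scaled CPM (counts per 1e+06 counts of the library) unless they are stated to be TPM (transcripts per 1e+06), the length-scaled unit used to compare genes. The tissue label was checked with summed markers of dentate granule cells (339 to 494 CPM) and of CA pyramidal cells (506 to 922 CPM), and both were present in every library.

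All 7 genes were low in hippocampus. Per length, the precursors Tac1 and Tac2 stood highest in each group, at mean TPM of 12.0 and 8.02 in OVX Xmo, 11.1 and 8.63 in OVX saline, 14.2 and 21.1 in sham Xmo, and 8.52 and 6.17 in sham saline. The receptors and Trh stayed under a mean of 2 TPM in each group. Tac1 was above Tac2 in every library of OVX Xmo, OVX saline and sham saline, and in 2 of 4 libraries of sham Xmo, yet the ranges of the pair overlapped in each group. Among the 5 lower genes the order changed between groups: Trh was highest of them in OVX Xmo (1.72 TPM), sham Xmo (0.900 TPM) and sham saline (1.17 TPM), and Trhr in OVX saline (0.848 TPM). Trh was above Trhr in only 1 of 4 libraries of OVX Xmo (5.46 TPM in OVX Xmo 2, against 0.315 to 0.636 TPM in the others) and 1 of 3 of sham saline (2.42 TPM in sham saline 2), so its rank there rests on a single library each. The lowest was Tacr1 in OVX Xmo (0.421 TPM) and sham saline (0.313 TPM), Tacr3 in OVX saline (0.138 TPM) and Trhr in sham Xmo (0.3601 TPM). Neighbours in these orders of the lower 5 overlapped in their ranges over libraries in each group.

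Trhr, which encodes the TRH receptor through which TRH acts on the pituitary, lies on GRCm38.p6 at chr15:44196135-44235912 on the plus strand (ENSMUSG00000038760). Its levels were 2.54, 2.25, 3.67 and 4.07 CPM in OVX Xmo 1 to 4, against 1.68, 1.83, 1.66 and 1.87 CPM in OVX saline 1 to 4. In sham mice they were 1.22, 0.706, 0.728 and 0.594 CPM in sham Xmo 1 to 4, against 4.75, 3.22 and 1.81 CPM in sham saline 1 to 3. The 4 OVX Xmo libraries were all above the 4 OVX saline libraries, and the 4 sham Xmo libraries were all below the 3 sham saline libraries. The log2 fold change was 0.82 (SE 0.29) for xanthohumol in OVX mice and -2.02 (SE 0.32) for xanthohumol in sham mice, each against saline. The interaction, which subtracts the xanthohumol difference of sham mice from that of OVX mice, was 2.84 (SE 0.43). With limma on log2(TPM + 0.1) the sham difference was -1.22, in a comparison where this scaling raised the median of all genes by 0.52.

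Trhr averaged 3.13 ± 0.876 CPM in OVX Xmo, 1.76 ± 0.107 CPM in OVX saline and 0.812 ± 0.278 CPM in sham Xmo (SD, n = 4 each), and 3.26 ± 1.47 CPM in sham saline (SD, n = 3). The OVX saline libraries were the tightest of the 4 groups by SD and sham saline the widest. Under xanthohumol the surgeries did not overlap, with OVX Xmo above sham Xmo by 1.95 on the log2 scale (SE 0.31). OVX saline was lower than sham saline by a log2 fold change of -0.89 (SE 0.31) with overlapping libraries, which became -0.51 without sham saline 1 and -0.16 with limma on log2(TPM + 0.1). OVX Xmo against sham saline came to -0.07 (SE 0.31), which was 0.20 when counts were scaled by library totals only and 0.57 with limma on log2(TPM + 0.1). Those scalings raised the median of all genes by 0.30 and 0.59 in that comparison, and relative to the median the Trhr value was -0.12 and -0.04.

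Tacr3, which encodes the neurokinin B receptor NK3, lies at chr3:134829007-134934579 on the plus strand (ENSMUSG00000028172). Its levels were 2.32, 0.814, 1.996 and 2.24 CPM in OVX Xmo 1 to 4, against 0.250, 0.204, 0.521 and 0.163 CPM in OVX saline 1 to 4. In sham mice they were 1.35, 0.414, 0.347 and 1.26 CPM in sham Xmo 1 to 4, against 3.11, 0.769 and 4.56 CPM in sham saline 1 to 3. OVX Xmo and OVX saline did not overlap, while 2 sham Xmo libraries (1 and 4) lay above the lowest sham saline library. The log2 fold change was 2.66 (SE 0.61) for the xanthohumol difference in OVX mice and -1.74 (SE 0.57) for that in sham mice, with an interaction of 4.40 (SE 0.84). The sham difference was -0.98 with limma on log2(TPM + 0.1).

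Tacr3 averaged 1.84 ± 0.699 CPM in OVX Xmo, 0.284 ± 0.162 CPM in OVX saline and 0.844 ± 0.538 CPM in sham Xmo (SD, n = 4 each), and 2.81 ± 1.91 CPM in sham saline (SD, n = 3). OVX saline was the lowest group, with 4 to 16 counts per library, so counting error weighs on its values. OVX saline against sham saline gave a log2 fold change of -3.28 (SE 0.63), with no overlap in CPM but with overlap in TPM, where the value from limma on log2(TPM + 0.1) was -1.95. That scaling raised the median of all genes by 0.61 there, and relative to the median the values were -2.56 for Tacr3 and -0.78 for Trhr. OVX Xmo exceeded sham Xmo by 1.12 (SE 0.54) and stood at -0.62 (SE 0.56) against sham saline, with overlapping libraries in both comparisons, and the second of these was 0.14 with limma on log2(TPM + 0.1), or -0.46 relative to the median of all genes.

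The share of all tested genes whose libraries did not overlap, in either direction, was 3.11% for xanthohumol against saline in OVX mice and 14.2% for the same in sham mice. It was 24.5% for OVX saline against sham saline and 5.88% for OVX Xmo against sham Xmo. Libraries separate by chance more often with n = 3, as in sham saline, than with n = 4, so these shares are not compared with each other. With the adjusted p of edgeR's quasi-likelihood test under 0.05, 0% of genes passed for OVX Xmo against OVX saline (0 genes, 834 at an unadjusted p under 0.05, and 2 with DESeq2) and 0.01% for OVX Xmo against sham Xmo. For sham Xmo against sham saline 0.721% rose and 0.791% fell, and for OVX saline against sham saline 3.65% rose and 2.59% fell. Under OVX Xmo against sham saline 0.746% rose and 0.441% fell, and for the interaction 0.27% were positive and 0.145% negative. Since Trhr and Tacr3 were picked on these comparisons, which share groups, nothing is read from their place in these shares. The shares passing moved with the settings, as the counts in the closing section show.

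**Figure D1:**
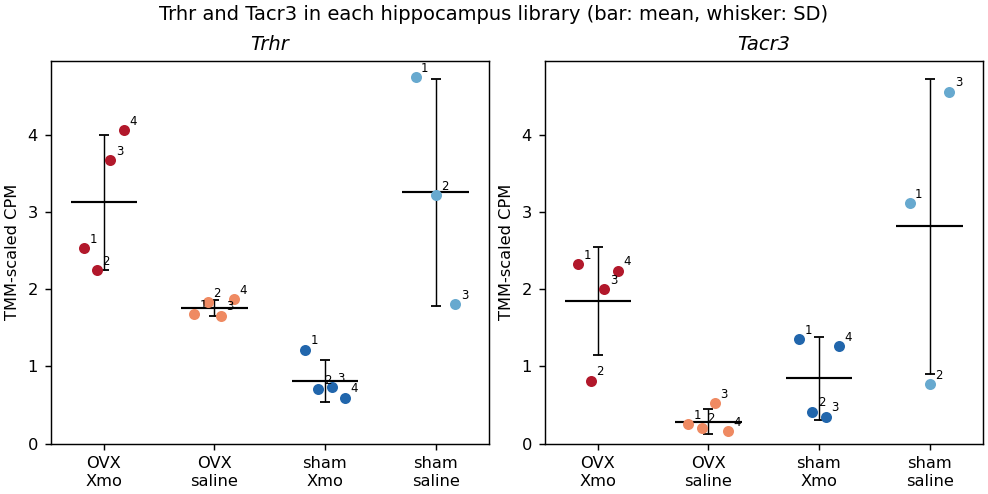
TMM-scaled CPM of Trhr and Tacr3 (linear axes from 0) in each library of OVX Xmo, OVX saline, sham Xmo and sham saline, with replicate numbers beside the points, the group mean as a bar and the SD as a whisker. For Trhr the 4 OVX Xmo points (2.25 to 4.07) lie above the 4 OVX saline points (1.66 to 1.87), and the 4 sham Xmo points (0.594 to 1.22) lie below the 3 sham saline points (1.81 to 4.75).

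The difference between surgeries averaged over treatment did not serve to choose Trhr or Tacr3 and was tested, although it rests on the same libraries and, with 3 libraries in sham saline, is not fully independent of the sham difference that did. It averages opposite signs, since the surgery difference was 1.95 under xanthohumol and -0.89 under saline for Trhr, and 1.12 and -3.28 in the same order for Tacr3. Averaged over treatment, ovariectomized mice differed from sham mice in Trhr by a log2 fold change of 0.53 (SE 0.22, 95% interval 0.06 to 0.99), with an adjusted p of 0.185 by edgeR's quasi-likelihood test. For Tacr3 the difference was -1.08 (SE 0.42, 95% interval -1.97 to -0.19), with an adjusted p of 0.162 by the same test. Neither gene passed, and 0.01% of all genes did (2 genes, with 4177 at an unadjusted p under 0.05). With limma on log2(TPM + 0.1), Trhr passed in this comparison (0.81, adjusted p = 0.0222), where that scaling raised the median of all genes by 0.34, and the Tacr3 difference was -0.41. In that setting 6683 of the 19969 genes passed, 98.7% of them higher, so the Trhr call does not set it apart. Relative to the median of all genes the Trhr value there was 0.47.

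The other receptors, Trhr2 and Tacr1, did not pass in any of the 7 comparisons. Trhr2, the TRH receptor that rodents have beside Trhr, lies at chr8:122356967-122360746 on the minus strand (ENSMUSG00000039079). It measured 0.378, 1.04, 0.680 and 0.0746 CPM in OVX Xmo, 0.175, 0.645, 0.456 and 0.407 CPM in OVX saline, 0.440, 0.852, 0.173 and 0.297 CPM in sham Xmo, and 0.699, 0.721 and 0.369 CPM in sham saline, from 2 to 37 counts per library. The groups overlapped throughout, and the interaction was 0.80 (SE 0.91, 95% interval -1.14 to 2.74, edgeR adjusted p = 0.696). It was 0.25 without OVX Xmo 2, 1.37 without sham Xmo 2 and 0.10 with limma on log2(TPM + 0.1), which lowered the median of all genes by 0.53 there.

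Tacr1, which encodes the substance P receptor NK1, lies at chr6:82402334-82560104 on the plus strand (ENSMUSG00000030043). It measured 0.971, 1.12, 1.22 and 1.12 CPM in OVX Xmo, 1.35, 0.679, 1.24 and 1.59 CPM in OVX saline, 1.12, 3.14, 0.312 and 0.841 CPM in sham Xmo, and 1.12, 0.817 and 1.31 CPM in sham saline. OVX Xmo was the tightest group (1.11 ± 0.104 CPM, SD, n = 4), and sham Xmo held both the highest and the lowest library. The interaction was -0.46 (SE 0.72, 95% interval -1.99 to 1.06, edgeR adjusted p = 0.784), and its sign turned to 0.40 without sham Xmo 2.

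The peptide genes Trh, Tac1 and Tac2 did not pass in any of the 7 comparisons either. Thus 0 of the 5 genes tested throughout passed edgeR's test in any comparison, 0 of 5 had an unadjusted p under 0.05, and 0 of 5 passed with DESeq2. Over all genes 4.18% to 24.7% had an unadjusted p under 0.05, depending on the comparison, and the shares passing after adjustment were those given above, so with 5 genes a count of 0 does not set them apart. Trh lies at chr6:92242061-92244650 on the minus strand (ENSMUSG00000005892). It measured 0.216, 3.76, 0.317 and 0.522 CPM in OVX Xmo 1 to 4, 0.426, 0.204, 0.846 and 0.691 CPM in OVX saline 1 to 4, 0.542, 0.876, 0.658 and 0.718 CPM in sham Xmo 1 to 4, and 0.733, 3.56 and 0.246 CPM in sham saline 1 to 3. OVX Xmo 2 and sham saline 2 stood far above the rest, and every other library was under 0.9 CPM.

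For Trh the log2 fold change was 1.19 (SE 0.86, edgeR adjusted p = 0.998) for OVX Xmo against OVX saline and -1.08 (SE 0.89, edgeR adjusted p = 0.561) for sham Xmo against sham saline. These signs were those of its receptor gene Trhr, but the first turned to -0.63 without OVX Xmo 2 and the second to 0.49 without sham saline 2 and to 0.080 with limma on log2(TPM + 0.1). The interaction was 2.26 (SE 1.24, 95% interval -0.37 to 4.90, edgeR adjusted p = 0.365), and it was 0.46 without OVX Xmo 2 and 0.70 without sham saline 2.

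Tac1 lies at chr6:7554879-7565834 on the plus strand (ENSMUSG00000061762). It measured 5.15, 2.61, 6.21 and 7.01 CPM in OVX Xmo, 4.56, 5.57, 5.01 and 3.74 CPM in OVX saline, 5.52, 12.6, 4.54 and 4.50 CPM in sham Xmo, and 7.40, 5.04 and 5.71 CPM in sham saline. Apart from the high sham Xmo 2 library, its values lay within 2.61 and 7.40 CPM. The interaction was -0.02 (SE 0.49, 95% interval -1.07 to 1.03, edgeR adjusted p = 0.989).

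Tac2 lies at chr10:127724478-127731768 on the plus strand (ENSMUSG00000025400). It measured 4.10, 1.52, 3.63 and 2.91 CPM in OVX Xmo, 3.23, 4.14, 1.98 and 2.64 CPM in OVX saline, 1.96, 22.5, 2.11 and 3.84 CPM in sham Xmo, and 3.88, 2.40 and 2.87 CPM in sham saline. The library sham Xmo 2 was again the high one, and in every other library the ligand gene of the Tacr3 receptor lay between 1.52 and 4.14 CPM. For sham Xmo against sham saline the log2 fold change was 1.32 (SE 0.70, 95% interval -0.17 to 2.81, edgeR adjusted p = 0.334), and it was -0.23 without sham Xmo 2. The interaction was -1.31 (SE 0.94, 95% interval -3.31 to 0.70, edgeR adjusted p = 0.508), opposite in sign to that of Tacr3, and it was 0.24 without sham Xmo 2.

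**Figure D2:**
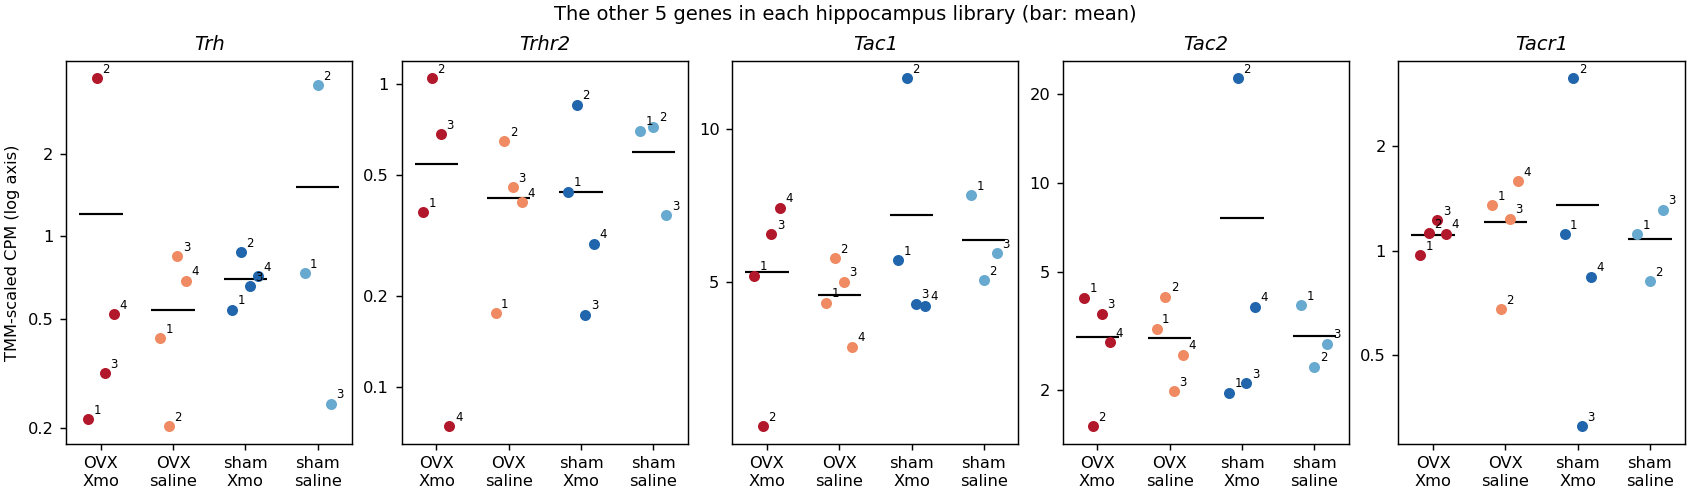
TMM-scaled CPM (log axes) of Trh, Trhr2, Tac1, Tac2 and Tacr1 in each library of OVX Xmo, OVX saline, sham Xmo and sham saline, with replicate numbers beside the points and the group mean as a bar. The libraries that stand out are OVX Xmo 2 (3.76) and sham saline 2 (3.56) for Trh, and sham Xmo 2 for Tac1 (12.6), Tac2 (22.5) and Tacr1 (3.14).

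**Figure D3:**
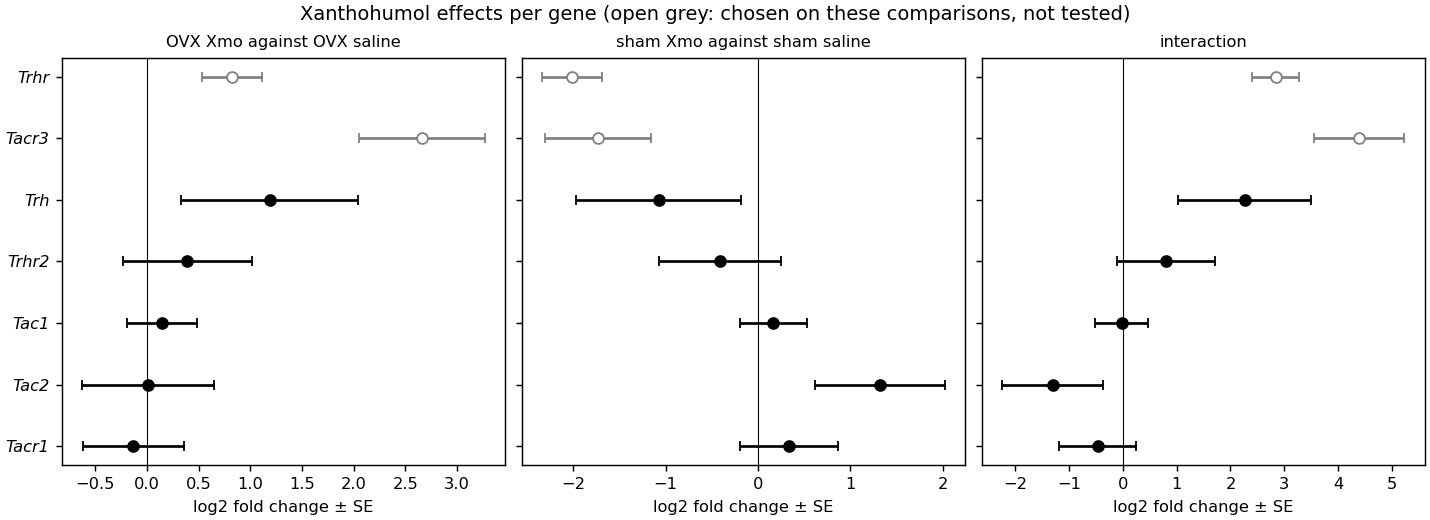
Log2 fold change with its SE for the 7 genes under xanthohumol against saline in OVX mice and in sham mice, and for the interaction, with open grey points for Trhr and Tacr3, which were chosen on these comparisons. Trh lies on the side of Trhr and Tacr3 in the 3 panels (1.19, -1.08 and 2.26) with wider errors, and Tac2 on the other side in the interaction (-1.31), but Trh changes side in the first panel without OVX Xmo 2, in the second without sham saline 2 or with limma on log2(TPM + 0.1), and Tac2 changes side without sham Xmo 2.

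Across the 15 libraries the receptor genes Trhr and Tacr3 correlated with Pearson's r = 0.42 and Spearman's rho = 0.42 in log2 CPM, a value given without a test because the pair was chosen for a shared pattern. Once each group's mean was removed, r was 0.07. Of the 10 pairs among the 5 other genes, Tac1 with Tac2 had the smallest p (r = 0.80, permutation p = 0.0015, adjusted p = 0.015; rho = 0.56, permutation p = 0.0333, adjusted p = 0.24). That r was 0.56 without sham Xmo 2 alone. It fell to 0.28 without the libraries farthest from the median of Tac1, sham Xmo 2 and OVX Xmo 2, so its size rests largely on those libraries. With group means removed and all 15 libraries kept, r was 0.81.

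Trhr and Trh had r = 0.03 and rho = -0.11 across the 15 libraries, also given without a test because Trhr was chosen for its pattern over them. Without the libraries farthest from the median of Trhr, sham Xmo 4 and sham saline 1, r was again 0.03. With group means removed r was -0.03.

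Markers of regions next to the hippocampus moved with several of these genes. In bulk tissue, fewer cells of a type and less RNA per cell cannot be told apart. The summed level of 7 subiculum and entorhinal cortex markers was 278 to 451 CPM in OVX Xmo (median 387), 186 to 339 CPM in OVX saline (235), 218 to 337 CPM in sham Xmo (311) and 370 to 496 CPM in sham saline (439). Tacr3 followed this sum across the 15 libraries (r = 0.87, rho = 0.86), and still did with group means removed (r = 0.68, rho = 0.62). All 7 of these markers had a positive log2 fold change for OVX Xmo against OVX saline (median 0.72, beside 0.0034 over all genes), and 6 of 7 a negative one for sham Xmo against sham saline (median -0.50, beside 0.03 over all genes), while 0 of 7 passed edgeR's test in either. For OVX saline against sham saline 6 of 7 were negative too (median -0.63). Against sham saline this depended on scaling: with limma on log2(TPM + 0.1) the medians were 0.07 for sham Xmo and 0.18 for OVX saline, or -0.47 and -0.43 relative to the median of all genes. The signs with TMM scaling are those of Tacr3, but other lists shared them. For OVX Xmo against OVX saline 10 of 10 interneuron, 10 of 10 thalamus and 5 of 7 neocortex markers were positive. For sham Xmo against sham saline 10 of 10, 7 of 10 and 6 of 7 were negative, in the same order. Dentate granule cell markers went the other way (9 of 9 negative, then 7 of 9 positive). The part of the marked cells in the Tacr3 values was not tested.

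Tacr3 also correlated with the summed markers of neocortex (r = 0.80, rho = 0.79) and of interneurons (r = 0.73, rho = 0.68). The relation was inverse with those of dentate granule cells (r = -0.68, rho = -0.70) and of hypothalamus (r = -0.61, rho = -0.54), a list that summed to 1.07 to 2.24 CPM. With group means removed r was 0.67 for neocortex, 0.58 for interneurons, -0.35 for dentate granule cells and -0.54 for hypothalamus. The markers of CA pyramidal cells, thalamus, habenula, striatum and choroid plexus gave r between -0.16 and 0.15 over the 15 libraries. Once group means were removed, r was -0.39, -0.50, -0.11, -0.27 and -0.23 in the same order. For striatum r was 0.65 without sham Xmo 2 and sham saline 2, the libraries farthest from the median of that sum. Trhr correlated less with the subiculum and entorhinal cortex sum (r = 0.45, rho = 0.49), and with group means removed r was 0.05. Its highest value was with interneuron markers (r = 0.65, rho = 0.60; 0.39 with group means removed), and its value with dentate granule cell markers was -0.53 (rho = -0.51). Interneuron markers summed to 759 to 1007 CPM in OVX Xmo, 637 to 807 CPM in OVX saline, 603 to 851 CPM in sham Xmo and 792 to 1014 CPM in sham saline, and their part in the Trhr values was not tested. Because the pair was chosen for its group pattern, these correlations are given without a p.

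Trh moved with thalamus markers. The 10 markers summed to 772 CPM in OVX Xmo 2 and 497 CPM in sham saline 2, the libraries with high Trh, against 137 to 464 CPM in the other 13 libraries. Gbx2, a thalamic transcription factor gene, was at 4.30 CPM in OVX Xmo 2 and 0.673 CPM in sham saline 2, and at 0 counts in 4 libraries. Gbx2 was higher than in sham saline 2 in 4 libraries with Trh under 0.9 CPM. It was at 2.19 CPM in sham Xmo 2, 1.72 CPM in OVX saline 3, 0.773 CPM in OVX saline 4 and 0.873 CPM in sham saline 1. Trh was 0.876, 0.846, 0.691 and 0.733 CPM in those libraries, in the same order. In the libraries with 0 Gbx2 counts, Trh was 0.426 CPM (OVX saline 1), 0.204 CPM (OVX saline 2), 0.718 CPM (sham Xmo 4) and 0.246 CPM (sham saline 3). The relation of Gbx2 alone with Trh was not tested. Across the 15 libraries Trh and the thalamus sum had r = 0.84 (permutation p = 7e-05, adjusted p = 0.0035) and rho = 0.82 (permutation p = 0.00039, adjusted p = 0.0195), over 50 relations of the 5 tested genes with 10 marker lists. Without the libraries farthest from the median of the sum, OVX Xmo 2 and OVX Xmo 1, r was 0.72, and with group means removed it was 0.85. The 7 hypothalamus markers, from the region best known for Trh, summed to 1.07 to 2.24 CPM in every library.

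Sham Xmo 2, the library with high Tac2, Tac1 and Tacr1, held 119 CPM of the 6 habenula markers, against 33.7 to 57.9 CPM in the other 14 libraries. Each of the 6 was highest in that library, among them Gpr151, a receptor gene used to mark habenular neurons, at 18.3 CPM against at most 1.39 CPM elsewhere. In the other 14 libraries the sum was mostly the marker Nwd2, at 28.8 to 54.7 CPM. Each of the other habenula markers was at most 2.47 CPM there. The 6 striatum markers were also each highest there, and they summed to 65.6 CPM, against 22.0 to 37.6 CPM in the other libraries. In mice the medial habenula is known to express Tac1 and Tac2. Tac2 correlated with the habenula sum (r = 0.85, permutation p = 0.00836, adjusted p = 0.209; rho = 0.59, permutation p = 0.0241, adjusted p = 0.241), which did not pass, and r was 0.30 without sham Xmo 2 and sham saline 2, the libraries farthest from the median. Tac2 with the striatum sum had r = 0.75 (permutation p = 0.0296, adjusted p = 0.251) and rho = 0.32. For Tac1 r was 0.67 with habenula and 0.61 with striatum (permutation p = 0.0215 and 0.0359, adjusted p = 0.251 for both). None of these passed, and without the same libraries r was 0.16, 0.23 and 0.10 in that order. The parts of habenular and of striatal tissue in these values were not tested.

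**Figure D4:**
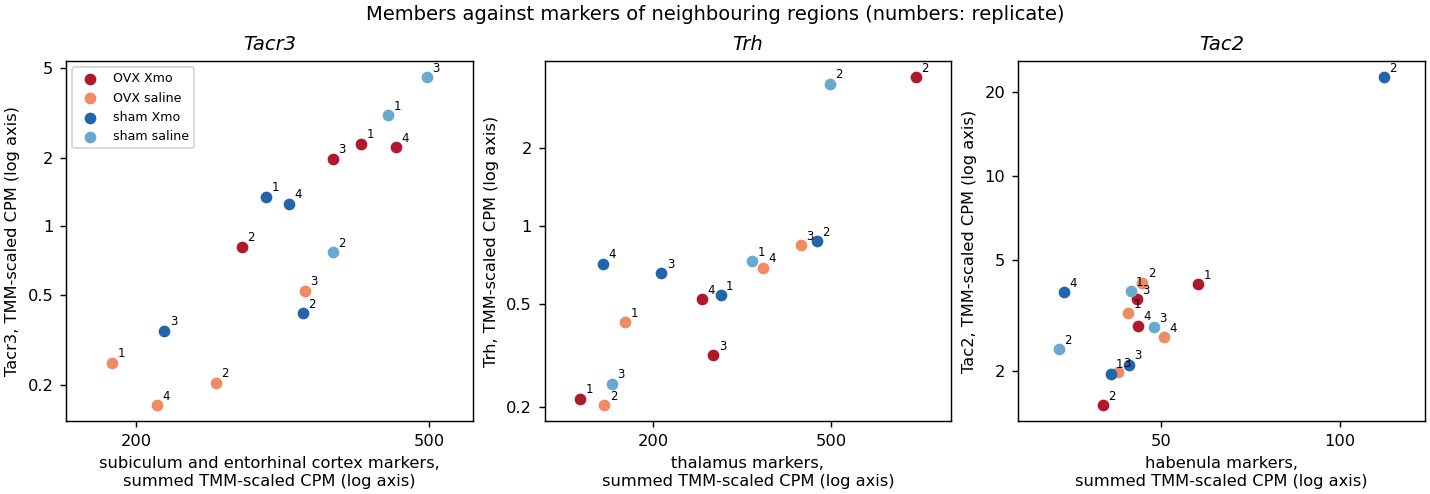
TMM-scaled CPM (log axes) of Tacr3, Trh and Tac2 against the summed CPM of subiculum and entorhinal cortex, thalamus and habenula markers in the 15 libraries, coloured by group and numbered by replicate. Tacr3 climbs along its axis across groups, Trh is highest in the 2 libraries with the highest thalamus sums, and Tac2 has a lone library, sham Xmo 2, at 119 CPM of habenula markers.

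Genes most like Trhr across the 15 libraries were sought among 19962 tested genes. The closest was Dio3 (r = 0.89, rho = 0.81), which encodes the deiodinase that inactivates thyroid hormone. Dio3 averaged 0.954 ± 0.562 CPM in OVX Xmo, 0.652 ± 0.288 CPM in OVX saline and 0.251 ± 0.156 CPM in sham Xmo (SD, n = 4 each), and 1.19 ± 0.910 CPM in sham saline (SD, n = 3). It was followed by Kcng3 (r = 0.84, rho = 0.75), a potassium channel subunit gene, Rassf5 (r = 0.83, rho = 0.83), a Ras effector gene, Gm22 (r = 0.81, rho = 0.86) and Gm16702 (r = 0.80, rho = 0.74). Since a gene with the same group pattern scores high by that alone, the likeness was also taken with group means removed. There Dio3 ranked 36 (r = 0.77), and the closest was Mrps14 (r = 0.88, rho = 0.83), a mitochondrial ribosomal protein gene.

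Genes most like Tacr3 were Ptger3 (r = 0.89, rho = 0.89), which encodes a prostaglandin E2 receptor, Tox (r = 0.87, rho = 0.93), a transcription factor gene, 1110032F04Rik (r = 0.86, rho = 0.84), Utrn (r = 0.86, rho = 0.87), the gene of the dystrophin relative utrophin, and Efnb2 (r = 0.86, rho = 0.79), which encodes ephrin-B2. Ptger3 averaged 2.43 ± 0.622 CPM in OVX Xmo, 1.497 ± 0.212 CPM in OVX saline and 2.14 ± 0.439 CPM in sham Xmo (SD, n = 4 each), and 3.32 ± 1.49 CPM in sham saline (SD, n = 3). With group means removed the closest were Oprd1 (r = 0.94), the delta opioid receptor gene, and Ly6g6e (r = 0.91). Ly6g6e is among the subiculum and entorhinal cortex markers used above. Oprd1 itself was at 10.5 ± 1.93 CPM in OVX Xmo, 10.2 ± 1.48 CPM in OVX saline and 9.47 ± 1.66 CPM in sham Xmo (SD, n = 4 each), and 10.1 ± 3.83 CPM in sham saline (SD, n = 3).

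Genes for related peptides, their processing and their receptors were tested gene by gene and counted in lists, with no test of a list as a whole. Of 8 genes for processing and breakdown of TRH, which include the prohormone convertase genes Pcsk1 and Pcsk2, the amidating enzyme gene Pam and the TRH-degrading peptidase gene Trhde, 0 passed in any of the 7 comparisons by edgeR's test. Their median log2 fold change was 0.09 for OVX Xmo against OVX saline and 0.03 for sham Xmo against sham saline, beside 0.0034 and 0.03 over all genes. Of 5 other tachykinin genes and peptidases, 3 were tested and 0 passed in any comparison. Over all genes at most 3.65% rose and 2.59% fell in a comparison, so counts of 0 in lists this small do not set them apart.

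Among 26 other neuropeptide receptor genes, of which 24 were tested, 1 passed: Adcyap1r1, the receptor gene for the peptide PACAP, rose for OVX saline against sham saline, at 131 ± 13.2 CPM and 98.4 ± 1.93 CPM (SD, n = 4 and n = 3; log2 fold change 0.41, SE 0.09, edgeR adjusted p = 0.0235). Over all genes 3.65% rose in that comparison, so 1 of 24 is near the share of all genes. Of 15 other neuropeptide genes 14 were tested and 0 passed in any comparison. With at most 3.65% of all genes rising and 2.59% falling in a comparison, this count does not set them apart. The Adcyap1r1 call was lost in 5 of 23 alternatives, with an adjusted p of 0.0637 without OVX saline 2, 0.0672 without OVX saline 4, 0.0725 without sham saline 2, 0.0739 without sham saline 3 and 0.0735 with the replicate block. Its log2 fold change was 1.03 with limma on log2(TPM + 0.1), a scaling that raised the median of all genes by 0.61 in that comparison.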

How the data were processed

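Per the labels' protocols, RNA was taken up in Trizol and sequenced from TruSeq RNA libraries. FastQC 0.11.2, Trimmomatic 0.36, Bowtie2 2.3.2, StringTie 1.3.3b and build GRCm38.p6 are named in the submitters' processing notes. The authors deposited whole-number counts per gene and TPM values for the same libraries, per the file headers. The sources used here do not say whether strand was used in counting. A further 12 per-sample columns match no sample and were not used, and the miRNA libraries were not analysed here.

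The 7 genes, the gene lists and the comparisons were chosen with earlier results of these data known. Counts of all 15 libraries were filtered with filterByExpr by group, TMM-scaled and fitted with edgeR 4.0.16 in R 4.3.3 (quasi-likelihood F test, group means, 11 residual degrees of freedom). Benjamini-Hochberg adjustment ran over all 19969 genes, with a threshold of 0.05. SE is the log2 fold change over the root of F. Correlations used log2 CPM with a prior count of 2 and 1e+05 two-sided permutations. TPM was tested with limma 3.58.1 on log2(TPM + 0.1), and counts also with DESeq2 1.42.0. The procedure was tested on simulated data. The genes named were the 7, the 5 most correlated with Trhr and with Tacr3, and at most 4 per pathway list past the test in a comparison. A list of Gq signalling genes is not reported here. Other settings left out each library, used other scaling factors or no filter, fitted only the groups compared, or added a replicate block.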

Additional observations from a re-analysis of the deposited data

Results flagged for a closer look

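In 30 groups of 4 libraries examined, 4 values stood apart from their group by Dixon's criterion at 95%. The chance rate of about 1 group in 20 holds for independent groups of normally distributed values. Sham Xmo 2 recurred among the values, and the genes and lists were chosen with earlier results known. The count is therefore not compared with that rate. Not every marker list was examined. Striatum markers, at 65.6 CPM in sham Xmo 2 against 24.6 to 30.2 CPM in the other sham Xmo libraries, were left out. Trh was 3.76 CPM in OVX Xmo 2, against 0.216 to 0.522 CPM in the other OVX Xmo libraries. Tac1 was 12.6 CPM in sham Xmo 2, against 4.50 to 5.52 CPM in the other sham Xmo libraries. Tac2 was 22.5 CPM in sham Xmo 2, against 1.96 to 3.84 CPM in the other sham Xmo libraries. The summed habenula markers were 119 CPM in sham Xmo 2, against 34.3 to 44.3 CPM in the other sham Xmo libraries.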

How the results depend on the processing

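Trhr and Tacr3 kept their direction in every alternative run for the 2 xanthohumol comparisons, the 2 surgery comparisons within a treatment, surgery averaged over treatment and the interaction. They were chosen for their xanthohumol signs and the alternatives refit the same libraries, so this is a description. For OVX Xmo against sham saline Trhr turned from -0.07 to 0.20 with library totals only and to 0.57 with limma on TPM. Tacr3 turned there from -0.62 to 0.14 with limma on TPM. In 1 of 167 combinations of setting and comparison a tested member passed the threshold, Trhr averaged over treatment on TPM, where 6683 genes passed. The numbers of genes passing depended on the setting. With DESeq2 they were 2 for OVX Xmo against OVX saline, 1138 for sham Xmo against sham saline, 2342 for OVX saline against sham saline, 74 for OVX Xmo against sham Xmo, 1127 for OVX Xmo against sham saline, 1280 averaged over treatment and 845 for the interaction, beside 0, 302, 1246, 2, 237, 2 and 83 in the same order. With limma on TPM, from sham Xmo against sham saline onward, they were 7355, 9609, 0, 9502, 6683 and 1820, of which 99.3%, 99%, 99.4% and 98.7% were higher where sham saline or sham mice were the comparator and 1.04% in the interaction. With library totals only, an alternative chosen after seeing the data, counts were 3559 for sham Xmo against sham saline (97.2% higher, against 47.7% with TMM), for OVX saline against sham saline 4799 (96.2% against 58.4%), while OVX Xmo against sham saline gave 3530 (97% against 62.9%), 1554 averaged over treatment and 1182 for the interaction (3.47% against 65.1%). Without a low-count filter 20 passed for the interaction, 56 for OVX Xmo against sham saline, 108 for sham Xmo against sham saline and 568 for OVX saline against sham saline. Fitting only the groups compared gave 1 for OVX Xmo against OVX saline, 6 for sham Xmo against sham saline, 0 for OVX Xmo against sham Xmo and 4 for OVX Xmo against sham saline. Nothing in the labels stated that replicate numbers pair the libraries. Same-numbered libraries correlated in their deviations from group means between -0.215 and 0.186, over 0.1 in 2 of 21 pairs. Differently numbered pairs were not taken for comparison, so a batch shared by number was not tested. With the replicate block 37 genes passed for sham Xmo against sham saline, 178 for OVX saline against sham saline, 2 for OVX Xmo against sham saline, 0 for OVX Xmo against sham Xmo and 11 for the interaction, and the Tac1 interaction turned to 0.030. Leaving out 1 library at a time gave 0 to 1 genes for OVX Xmo against OVX saline, 14 to 672 for sham Xmo against sham saline, 120 to 1705 for OVX saline against sham saline, 0 to 3 for OVX Xmo against sham Xmo, 2 to 982 for OVX Xmo against sham saline, 2 to 980 averaged over treatment and 6 to 304 for the interaction. In those fits the interaction ranged over -0.19 to 0.48 for Tac1, -1.62 to 0.24 for Tac2 and -0.77 to 0.40 for Tacr1, and sham Xmo against sham saline over -0.34 to 0.34 for Tac1, -0.23 to 1.63 for Tac2, -0.54 to 0.64 for Tacr1 and -1.58 to 0.49 for Trh, with the turned sign for the tachykinin genes in sham mice coming without sham Xmo 2. Trh for OVX Xmo against OVX saline ranged over -0.63 to 1.54, and for sham Xmo against sham saline it was 0.080 with limma on TPM. The cause was not tested. Counts of 2 to 37 for Trhr2 and 4 to 111 for Tacr3 per library limit the precision of both.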
